A study of Homo sapiens with 3 samples.

Results

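The simple epithelial keratins examined here are KRT7, KRT8, KRT18 and KRT19, taken by name as 4 of the 60506 genes in the transcript tables, with 45 of the 226669 transcripts used. They were followed in HaCaT cells, an immortalized human keratinocyte line, transfected at 10 nM with SRSF5 siRNA 1, with SRSF5 siRNA 2 or with a control siRNA. There was 1 library for each transfection, so each siRNA and the control had n = 1, and the SRSF5 group had n = 2 with a different siRNA in each library. SRSF5 encodes a serine and arginine rich splicing protein, and the series asked how gene expression depends on it. The control cells are labelled wild type, and the others SRSF5 knockdown, and all were transfected with the lipid reagent RNAiMAX. The line is 1 immortalized line grown in serum, nothing says that a transfection was repeated in a separate culture, and a lone library shows no spread of its own.

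Keratins are intermediate filament proteins that assemble only as pairs of a type I and a type II chain. KRT8 (type II) and KRT18 (type I) form the basic pair of single-layered epithelia, while KRT7 (type II) and KRT19 (type I) are typical of glandular and ductal linings. Adult epidermis between the hair follicles is built mainly on KRT5, KRT14, KRT1 and KRT10, but keratinocyte lines in culture can carry the simple keratins as well.

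The family relation shows in the coding sequence at the end of the rod domain, a stretch conserved among intermediate filament proteins. The 30 bases below come from the coding strand of the main coding transcript of each gene in GENCODE 29, on GRCh38, and capitals mark the 17 positions that are the same in all 4 genes. They are shown as a stretch that both types share.
KRT7: ACCTACcGcaagCTGCTgGAgGgcgagGAg
KRT8: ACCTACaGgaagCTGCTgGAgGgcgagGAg
KRT18: ACCTACcGccgcCTGCTgGAaGatggcGAg
KRT19: ACCTACcGcagcCTGCTcGAgGgacagGAa
These lie on chromosome 12 at 52245598 to 52245627 in exon 7 of KRT7, at 52898684 to 52898713 in exon 7 of KRT8 and at 52952305 to 52952334 in exon 6 of KRT18, and on chromosome 17 at 41523782 to 41523811 in exon 6 of KRT19. Over the whole coding sequence KRT7 and KRT8 were identical at 76.8% of 1346 aligned bases, and KRT18 and KRT19 at 67.65% of 1150. Pairs of a type I and a type II gene were at 64.4% to 67.15%, so the type II pair stood out and the type I pair did not.

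The libraries held 17708195, 15864985 and 18323681 equivalents of a 100-base read in the largest transcripts of all genes, for siRNA 1, siRNA 2 and control. SRSF5 had a summed FPKM of 44.3 with siRNA 1 and 18.7 with siRNA 2, against 94.1 in the control, or 47.1% and 19.8% of the control. FPKM is a count scaled by transcript length and library depth, and a summed FPKM adds the listed transcripts of a gene. Keratinocyte identity was present in every library: all 8 marker genes passed the filter, and their highest-transcript FPKM added up to 1552 and 2839 with the siRNAs, against 1278 in the control. KRT14 alone held 554 and 1670 of these, against 382. At least 1.5-fold higher were 1 of the 8 with siRNA 1 (6.18% of all genes) and 6 with siRNA 2 (13.2%). Lower were 0 with siRNA 1 (5.47%) and 1 with siRNA 2 (10.1%). Marker sums were 1.73 and 1.80 against 0.827 for fibroblasts (1 of 8 genes tested), 0.0647 and 0.124 against 0.0908 for melanocytes (0 of 5, with 3 at 0 in every library), 10.3 and 8.88 against 14.6 for immune cells (1 of 5, CD68) and 0.586 and 0.786 against 0.705 for endothelium (1 of 4). Mitochondrial transcripts took 14.8% and 10.0% of the base overlaps with siRNA 1 and siRNA 2, against 13.7% in the control, and their part in the keratin values was not tested beyond the rescaling described in the closing section.

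The 4 keratins did not move together. KRT7 was highest with siRNA 1, KRT8 was highest with siRNA 2, KRT18 stayed within 1.13-fold of the control, and KRT19, the most abundant member, was lower than the control with both siRNAs. Of the 4 members, 0 differed from the control by 1.5-fold or more in 1 direction with both siRNAs, while 4.66% of the 13923 genes tested did (3.19% higher and 1.47% lower). With siRNA 1 alone 1 of 4 was at least 1.5-fold higher (6.18% of all genes) and 0 lower (5.47%), and with siRNA 2 alone 1 of 4 was higher (13.2%) and 0 lower (10.1%). Their median log2 ratio was 0.04 with siRNA 1 and 0.25 with siRNA 2, and that of all genes tested was -0.02 and 0.05. In bulk RNA, fewer cells that express a keratin and less of its RNA per cell cannot be told apart.

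**Figure D1:**
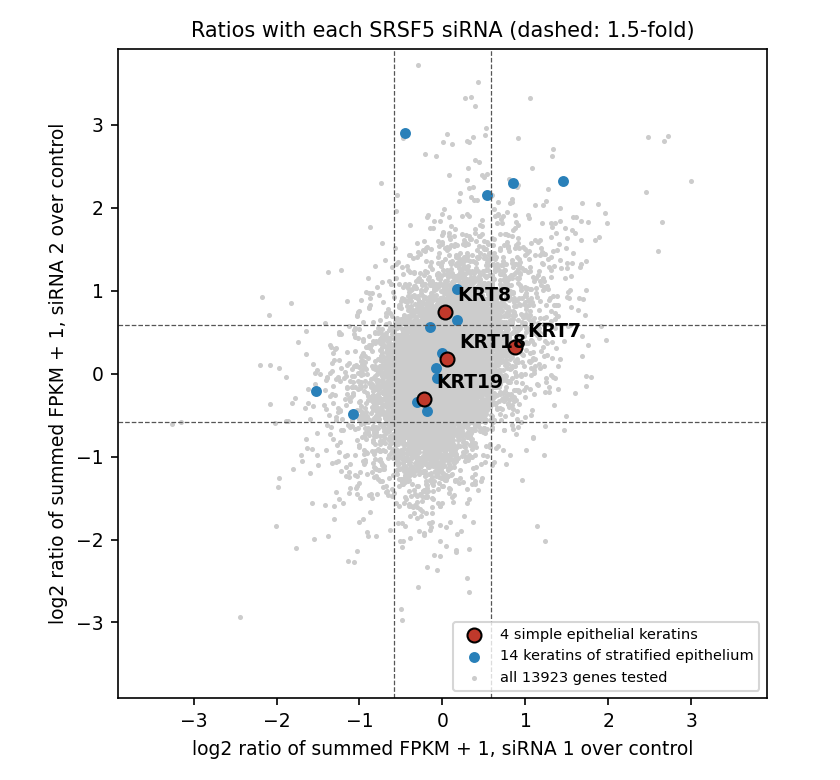
Each point is a gene, placed by its log2 ratio of summed FPKM + 1 for siRNA 1 over control (x axis) and siRNA 2 over control (y axis), with dashed lines at 1.5-fold, the 4 keratins in red and 14 keratins of stratified epithelium in blue. KRT7 lies past the line for siRNA 1, KRT8 past the line for siRNA 2, and KRT18 and KRT19 inside both.

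KRT7 encodes the type II keratin that marks many glandular and ductal epithelia (ENSG00000135480.16, chromosome 12, 52232520 to 52252186, plus strand, 14 listed transcripts). Its summed FPKM was 2098 with siRNA 1 and 1429 with siRNA 2, against 1147 in the control. Its highest transcript in each library, KRT7-207 of 329 bases, was at 342.1 and 215.5 FPKM, against 181.0 in the control. KRT7-207 is annotated as noncoding, and all its bases lie within exons of the coding transcript KRT7-201. The siRNA 1 library thus stood well above the other two, and siRNA 2 lay nearer the control. The log2 ratio, taken on summed FPKM + 1 here and below, was 0.87 with siRNA 1 (95% counting interval 0.83 to 0.91) and 0.32 with siRNA 2 (0.28 to 0.36). Of all genes tested 2.39% had a higher ratio with siRNA 1 and 27.5% with siRNA 2. The largest KRT7 transcript held 15067 and 10210 read equivalents, against 8680 in the control, so counting error is small beside these differences. The counting intervals cover only the number of reads, since copies made by PCR are not independent molecules, and say nothing of the spread between cultures.

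KRT8 encodes the type II partner of KRT18 (ENSG00000170421.12, chromosome 12, 52897187 to 52949954, minus strand, 17 listed transcripts). Its summed FPKM was 1211 with siRNA 1 and 1986 with siRNA 2, against 1185 in the control. The highest transcript, KRT8-209 of 250 bases, which is annotated as a target of nonsense-mediated decay, was at 223.8 and 365.2 FPKM, against 216.6 in the control. All its bases lie within exons of the coding transcript KRT8-201, so its level does not show that a decay isoform was abundant. Here siRNA 2 stood apart, and siRNA 1 and control were alike. The log2 ratio was 0.03 with siRNA 1 (counting interval -0.02 to 0.08) and 0.74 with siRNA 2 (0.70 to 0.79). With siRNA 2 8.49% of all genes tested had a higher ratio.

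KRT18 encodes the type I partner of KRT8 and is a type I gene that sits beside the type II genes (ENSG00000111057.11, chromosome 12, 52948871 to 52952906, plus strand, 7 listed transcripts). Its summed FPKM was 344.3 with siRNA 1 and 375.2 with siRNA 2, against 331.7 in the control. The highest transcript, KRT18-203 of 521 bases, annotated as a retained intron transcript, was at 60.8 and 68.4 FPKM, against 58.8 in the control. A base is counted in every transcript that overlaps it, so this level does not show that an intron was retained. Reads within the introns of KRT18 were not counted apart. All 3 libraries were close together, with log2 ratios of 0.05 (counting interval -0.01 to 0.12) and 0.18 (0.11 to 0.24). Some listed transcripts of its neighbour KRT8 begin inside the KRT18 interval on the opposite strand. The main coding transcript of KRT8, KRT8-201, does not reach it, with its outer end at 52906618. With siRNA 2 the ratio of KRT8 was 1.67-fold and that of KRT18 was 1.13-fold.

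KRT19 encodes the smallest type I keratin, found in ducts and in the stem cell region of hair follicles (ENSG00000171345.13, chromosome 17, 41523617 to 41528308, minus strand, 7 listed transcripts). Its summed FPKM was 2070 with siRNA 1 and 1963 with siRNA 2, against 2419 in the control. The highest transcript, KRT19-204 of 868 bases, annotated as a retained intron transcript, was at 411.8 and 396.7 FPKM, against 478.9 in the control. As for KRT18, that level does not show that an intron was retained, and intron reads were not counted apart. Both siRNA libraries were lower than the control and near each other, with log2 ratios of -0.23 (counting interval -0.25 to -0.20) and -0.30 (-0.33 to -0.27). These are 85.5% and 81.1% of the control, and 25.4% and 23.3% of all genes tested had lower ratios. KRT19 was the member with the least spread between the siRNAs, an SD of 0.05 in log2 units against 0.39 for KRT7, 0.50 for KRT8 and 0.09 for KRT18.

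Set as a group against the control, no member passed the test. limma on log2(summed FPKM + 1) over all 13923 genes gave KRT7 a mean log2 ratio of 0.59 ± 0.39 (SD, n = 2; SE 0.43; Benjamini-Hochberg adjusted p = 1.00), with both siRNAs above the control. KRT8 was at 0.39 ± 0.50 (SE 0.44; limma adjusted p = 1.00), KRT18 at 0.12 ± 0.09 (SE 0.37; limma adjusted p = 1.00) and KRT19 at -0.26 ± 0.05 (SE 0.42; limma adjusted p = 1.00). In limma 0 of 13923 genes had an adjusted p below 0.05, 416 (2.99%) had an unadjusted p below 0.05, and a robust limma fit called 3. The residual spread of a gene in this fit is the difference between the siRNAs, with 1 residual degree of freedom. limma draws that spread toward a trend over all 13923 genes, so an SE or p does not rest on the gene's own spread alone. KRT19 thus had an SE of 0.42 beside an SD of 0.05. An exact permutation of 1 library against 2 cannot go below p = 0.333. The silenced gene SRSF5 also stayed short of the adjusted threshold, at a mean log2 ratio of -1.67 ± 0.85 (SD, n = 2, with SE 0.48). A missed threshold in so small a design does not show that the keratins were alike.

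The siRNAs were also set against each other. The log2 ratio of siRNA 2 over siRNA 1 was -0.55 for KRT7 (counting interval -0.59 to -0.52), 0.71 for KRT8 (0.67 to 0.76), 0.12 for KRT18 (0.06 to 0.19) and -0.08 for KRT19 (-0.10 to -0.05). Only KRT8 was at least 1.5-fold apart, higher with siRNA 2, as were 13.7% of all genes tested, and 0 members were at least 1.5-fold lower, as were 10.5%. KRT7 was just inside that line on summed FPKM and past it on its highest transcript, at -0.66. With 1 library for each siRNA, no replicate bears on these differences.

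The transcripts of a member had similar ratios, which follows in part from the counting. A base was counted once in every transcript that overlaps it, so isoforms share reads. Among transcripts of at least 10 FPKM in every library, the log2 ratios with siRNA 1 and siRNA 2 spanned 0.72 to 0.94 and 0.11 to 0.51 over 13 KRT7 transcripts, -0.02 to 0.06 and 0.66 to 0.78 over 13 of KRT8, 0.05 to 0.06 and 0.13 to 0.23 over the 7 of KRT18, and -0.28 to -0.19 and -0.35 to -0.27 over the 7 of KRT19. KRT7 was the member with the widest range. At its upper end with siRNA 1 was KRT7-212 (0.94 and 0.28), and at its lower end with siRNA 2 KRT7-206 (0.80 and 0.11).

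**Figure D2:**
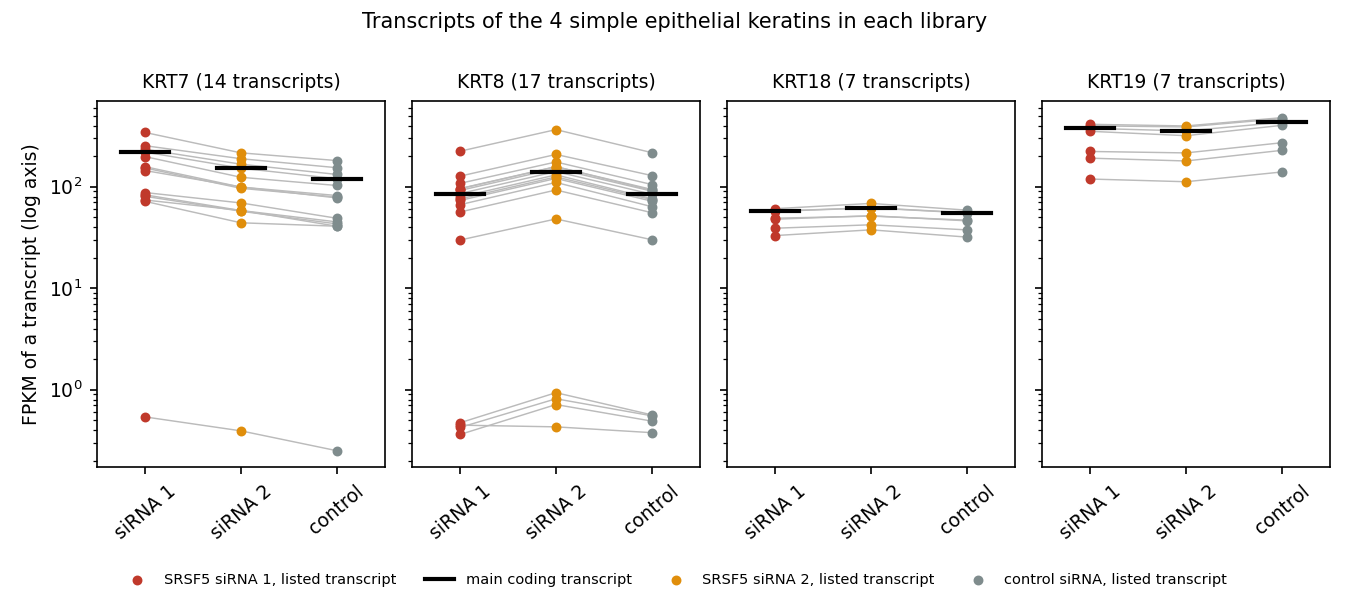
Points are listed transcripts of each gene with their FPKM on a log axis in the siRNA 1, siRNA 2 and control libraries, grey lines join a transcript across libraries, and black bars mark the main coding transcript. Among transcripts above 10 FPKM the lines of a gene run nearly parallel, and the 5 transcripts under 1 FPKM are KRT7-213 and 4 upstream transcripts of KRT8.

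The share of a transcript in the summed FPKM of its gene moved by at most 1.34 percentage points. The largest shifts that went the same way with both siRNAs were in KRT8-208, a retained intron transcript, at 10.50% and 10.47%, against 10.87% in the control, and in KRT19-205, also a retained intron transcript, at 10.7% and 11.0%, against 11.2% in the control. Nested transcripts show where the reads of KRT8 lie. KRT8-216 differs from KRT8-205 by 371 bases, mostly upstream exon sequence, and those were read 1.32 and 1.93 times per base on average with siRNA 1 and siRNA 2, against 1.42 in the control. KRT8-205 itself was read 388.4 and 624.0 times per base, against 403.0 in the control, so those 371 bases held next to no reads in any library. The 660 bases by which KRT8-203 exceeds KRT8-213, nearly all of them intron, were read 0.152 and 1.21 times, against 0.379 in the control. KRT8-213 was read 309.7 and 497.5 times per base, against 321.5 in the control, so that intron was nearly empty beside the exons in all 3 libraries.

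Several KRT8 transcripts begin inside the KRT18 interval on the opposite strand. The 4 that hold none of the downstream KRT8 exons were at 0.363 to 0.935 FPKM in the 3 libraries, while KRT18 transcripts were at 31.9 to 68.4 FPKM. The others, KRT8-216, KRT8-205, KRT8-204 and KRT8-210, share the downstream KRT8 exons and were at 63.6 to 151.2 FPKM. KRT7-AS, a noncoding RNA on the opposite strand of KRT7, was at 1.91 FPKM with siRNA 1 and 1.27 with siRNA 2, against 1.10 in the control. That order is the one of KRT7 itself, and a part of KRT7 reads in it was not tested.

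Levels between genes are given on the main coding transcript of each, KRT7-201, KRT8-201, KRT18-201 and KRT19-201, as FPKM per length. KRT19 led with 375.8 and 354.2 FPKM for siRNA 1 and siRNA 2, against 431.0 in the control. KRT7-201 was at 219.3 and 152.2, against 119.8 in the control, KRT8-201 at 85.7 and 141.0, against 84.3, and KRT18-201 at 57.5 and 62.1, against 55.4. The order of the levels was the same in all 3 libraries, although KRT7 and KRT8 came close together with siRNA 2. Together they held 738 and 710 FPKM with the siRNAs, against 690 in the control, so the total differed little while its makeup differed more.

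Among the 4 simple keratins, the ratio of type II to type I RNA was higher with both siRNAs than in the control. KRT7 and KRT8 together made up 304.9 and 293.2 FPKM with siRNA 1 and siRNA 2, against 204.1 in the control, and KRT18 and KRT19 together 433.3 and 416.3, against 486.4. The ratio of type II to type I was 0.704 with siRNA 1 and 0.704 with siRNA 2, against 0.420 in the control. Over all 55 keratins, 26 of type II and 29 of type I, that ratio was 0.961 with siRNA 1 and 0.596 with siRNA 2, against 0.864 in the control, so with siRNA 2 the direction was the opposite of that of the simple keratins. With siRNA 1 the excess lay in KRT7, which was 2.56 times KRT8, and with siRNA 2 in both, where KRT7 was 1.08 times KRT8, against 1.42 times in the control. Within the classic pair, KRT8 was 1.49 times KRT18 with siRNA 1 and 2.27 times with siRNA 2, against 1.52 times in the control. These ratios share 1 control library and were computed after the values were known, and no test was made of them.

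**Figure D3:**
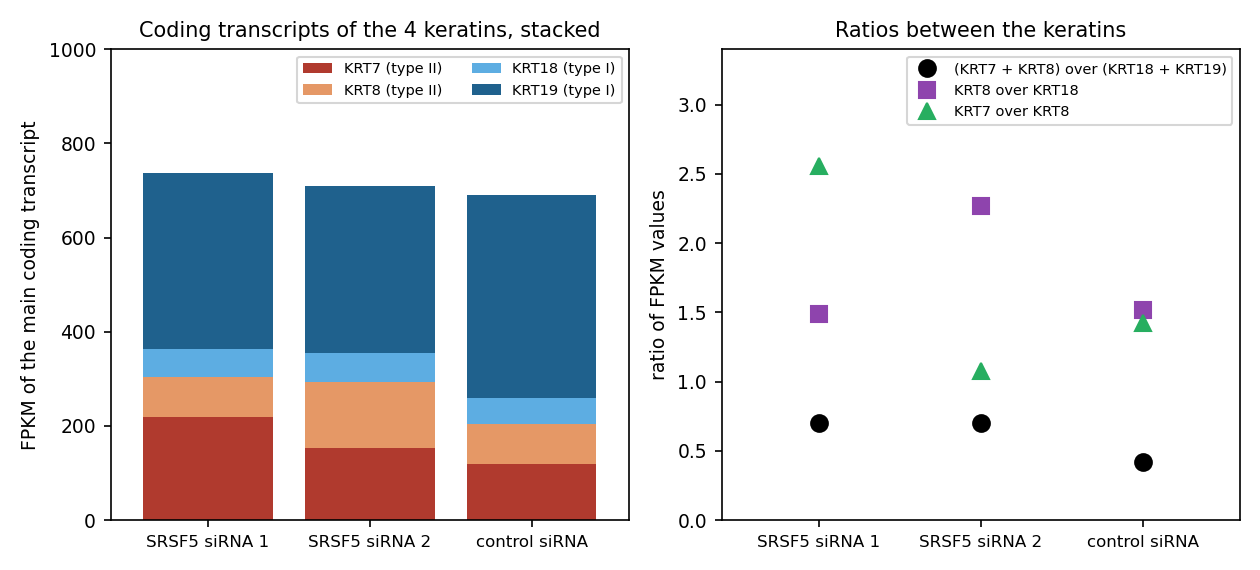
Left, stacked bars of the FPKM of the main coding transcripts of KRT7, KRT8, KRT18 and KRT19 in the siRNA 1, siRNA 2 and control libraries; right, ratios between them. The total stays between 690 and 738 FPKM while type II over type I is 0.704, 0.704 and 0.420.

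Among all 55 keratins with a main coding transcript, the 4 simple ones made up 41.1% of the keratin FPKM with siRNA 1 and 26.2% with siRNA 2, against 41.8% in the control. The lower share with siRNA 2 went with the stratified keratin KRT14, partner of KRT5 in the basal layer, whose coding transcript was at 333.4 FPKM with siRNA 1 and 1016 with siRNA 2, against 225.9 in the control. Of the 21 keratins listed for stratified epithelium 14 were tested, with median log2 ratios of -0.08 and 0.40, and 2 were at least 1.5-fold higher with both siRNAs and 0 lower, beside 3.19% and 1.47% of all genes. Those were KRT17 (1.45 and 2.31) and KRT16 (0.85 and 2.30), and KRT5 was at 0.18 and 0.64. KRT6A was lower than the control with both siRNAs (-0.31 and -0.34), and KRT6B (-0.01 and 0.24) and KRT6C (-0.08 and 0.06) lay near it. With siRNA 1 alone 2 of the 14 were higher (6.18% of all genes) and 2 lower (5.47%), KRT13 (-1.07) and KRT15 (-1.52), and with siRNA 2 alone 6 were higher (13.2%) and 0 lower (10.1%). Of the other simple-type keratins only KRT80, a keratin of many epithelia, passed the filter, at 4.32 and 4.98 FPKM on its highest transcript, against 2.38 in the control. Its log2 ratios were 0.77 and 0.96, so it was at least 1.5-fold higher with both siRNAs (3.19% of all genes). KRT20, a keratin of intestinal epithelium, was at 0.212 and 0.269 FPKM, against 0.145 in the control.

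**Figure D4:**
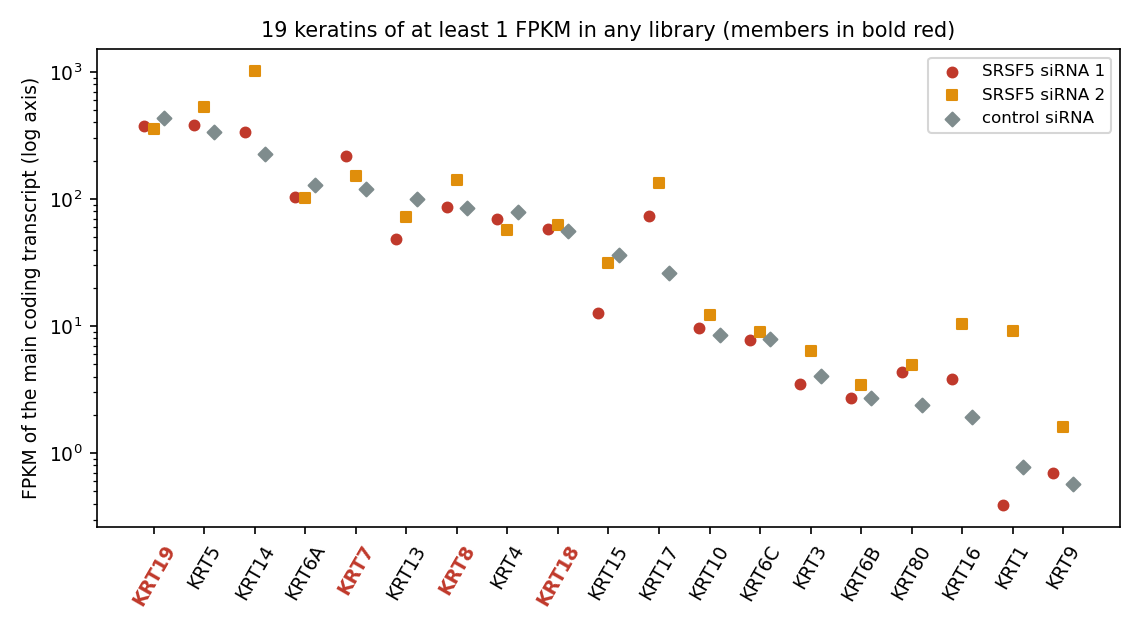
FPKM of the main coding transcript (log axis) of 19 keratins that reach 1 FPKM in any library, ordered by the control level, for siRNA 1, siRNA 2 and control. KRT19, KRT7, KRT8 and KRT18 are among the 9 highest in the control, and KRT14 with siRNA 2 is the highest point at 1016 FPKM.

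KRT8, KRT18 and KRT19 have many processed pseudogenes, copies of their RNA set back into the genome, and none carrying the KRT7 name was listed. The transcript tables hold 50 genes named as KRT8 pseudogenes, 67 for KRT18 and 5 for KRT19, with a median identity to the parent of 91.4%, 91.3% and 88.6% over the aligned bases. A window of 100 bases, the length of a read equivalent, shows how alike they can be. The coding window of KRT19 on chromosome 17 (41527879 to 41527978, exon 1, minus strand) is set below beside KRT19P1 on chromosome 6 (71584982 to 71585081, plus strand), with capitals at the 7 bases that differ, which is the median over 430 such windows.
KRT19: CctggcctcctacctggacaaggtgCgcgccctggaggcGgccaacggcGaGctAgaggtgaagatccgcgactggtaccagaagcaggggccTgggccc
KRT19P1: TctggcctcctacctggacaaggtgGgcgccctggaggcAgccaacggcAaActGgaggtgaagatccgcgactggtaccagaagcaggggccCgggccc
Windows of 100 bases identical to the parent were found in 4 of 51 KRT8 pseudogene transcripts, from 0.176% of windows in KRT8P10 to 5.26% in KRT8P3, with 1.40% in KRT8P45 and 3.39% in KRT8P33, and in 0 of those of KRT18 and KRT19.

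The pseudogene values followed their parents to differing degrees. All KRT8 pseudogenes together held 50.3 FPKM with siRNA 1 and 83.1 with siRNA 2, against 38.7 in the control, which is a log2 ratio of 0.37 and 1.08 where KRT8 had 0.03 and 0.74. The highest of them, KRT8P3, was at 26.4 and 47.4 FPKM, against 21.4 in the control, and KRT8P45 at 5.99 and 10.4, against 4.85. In base counts the KRT8 pseudogenes amounted to 43.4% and 43.8% of the largest KRT8 transcript, against 34.2% in the control. The KRT18 pseudogenes held 7.86 and 8.66 FPKM, against 6.09 in the control. KRT19P1 was at 7.45 and 8.84 FPKM, against 7.56, and so did not share the lower level of KRT19 with siRNA 2. How the authors placed reads that match several places is not given in the sources used here, so a part of the KRT8 reads may be listed under its copies, and the values of near-identical copies are uncertain. With pseudogene FPKM added to the summed FPKM of the parent, KRT8 was at 0.04 and 0.76, KRT18 at 0.06 and 0.18 and KRT19 at -0.22 and -0.30. The summed FPKM of a parent counts a base in each transcript that overlaps it, so the copies weigh little in that sum. For KRT8 in the control they were 38.7 beside 1185 FPKM, but 34.2% in base counts. The sum therefore cannot show how far misplaced reads would move the ratios.

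**Figure D5:**
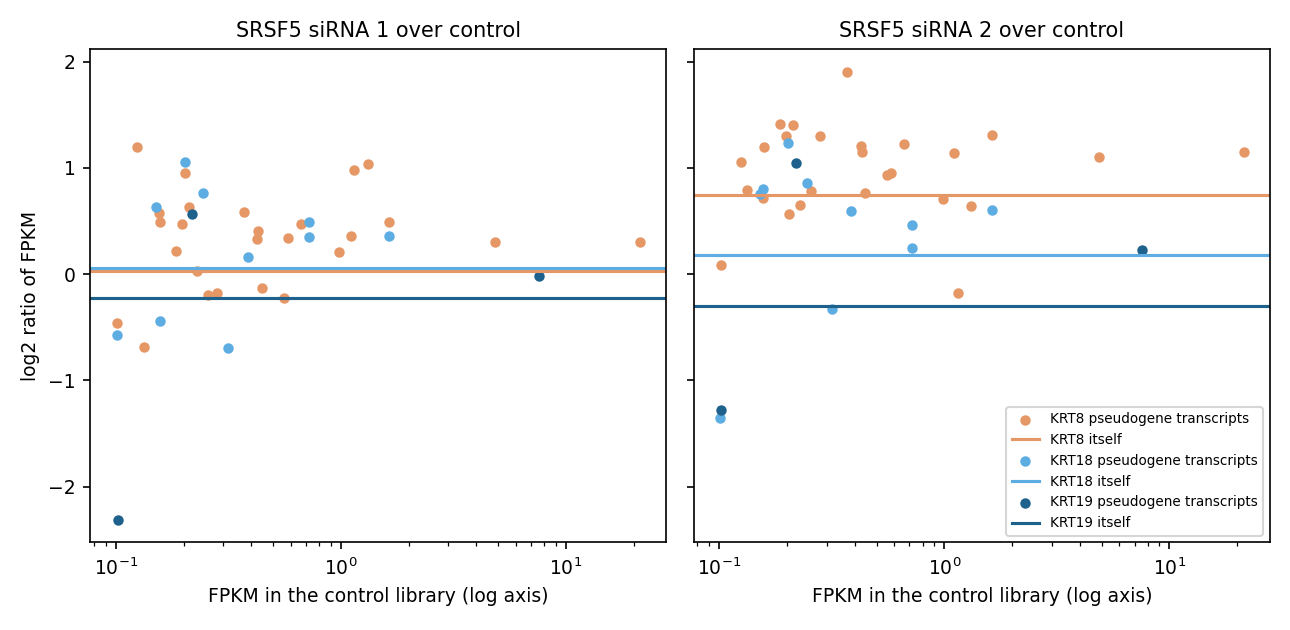
Points are pseudogene transcripts of at least 0.1 FPKM in the control, by control FPKM (log axis) and log2 ratio of FPKM for siRNA 1 (left) and siRNA 2 (right) over control, and lines are the parent genes. With siRNA 2, 25 of 26 KRT8 pseudogene transcripts lie above 0, around a median of 1.08.

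Genes known to act on simple keratin transcription and genes that mark luminal epithelium were counted from lists. Of 22 listed regulators 19 were tested, with median log2 ratios of 0.03 and 0.61. With both siRNAs 1 was at least 1.5-fold higher, SNAI2, a repressor of epithelial genes (0.70 and 1.86), and 2 were lower, the epithelial factor ELF3 (-0.94 and -0.72) and the forkhead factor FOXA1 (-0.93 and -1.04), beside 3.19% higher and 1.47% lower of all genes. With siRNA 1 alone 1 of the 19 was at least 1.5-fold higher (6.18% of all genes) and 4 lower (5.47%), and with siRNA 2 alone 10 were higher (13.2%) and 2 lower (10.1%). KLF5, a factor of proliferating epithelium and the listed regulator with the highest control level, was at 35.4 and 127.3 FPKM on its highest transcript, against 71.1 in the control, so it lay on opposite sides of the control with the siRNAs. JUND, an AP-1 subunit, was at 39.6 and 52.9 FPKM, against 39.0 in the control. limma called 0 regulators, with 3 at an unadjusted p below 0.05 (2.99% of all genes).

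Luminal epithelial genes had medians of 0.08 and -0.05 over 16 tested of 20. EPCAM, a surface protein of simple epithelia, was at 92.6 and 83.9 FPKM on its highest transcript, against 86.1 in the control. CDH1, which encodes E-cadherin, was the 1 gene of the 16 at least 1.5-fold higher with both siRNAs (1.88 and 1.64; 3.19% of all genes), and CEACAM6 (-1.39 and -0.62) and ELF3 were the 2 lower ones (1.47%). With siRNA 1 alone 1 was at least 1.5-fold higher (6.18% of all genes) and 3 were lower (5.47%). With siRNA 2 alone 3 were higher (13.2%) and 4 lower (10.1%). limma called 0 of these over all genes, with 2 at an unadjusted p below 0.05 (2.99% of all genes). Keratin linkers and anchors, which tie filaments to desmosomes and other structures, had medians of 0.03 and 0.04 over 16 tested. With both siRNAs 0 were at least 1.5-fold higher (3.19% of all genes) and 0 lower (1.47%). With siRNA 1 alone 1 was higher (6.18%) and 1 lower (5.47%), and with siRNA 2 alone 4 were higher (13.2%) and 1 lower (10.1%). DSP, which encodes the desmosomal linker desmoplakin, was at 175.4 and 299.8 FPKM on its highest transcript, against 181.6 in the control. DSG2, a desmosomal cadherin, was at 164.1 and 79.1, against 90.5. DSP was thus highest in the library where KRT8 was highest, and DSG2 in the library where KRT7 was. With siRNA 2, however, DSG2 lay below the control (-0.20) and KRT7 above it (0.32). A link between these linkers and the keratins was not tested.

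Genes with a pattern most like that of each keratin were named by the distance between the pairs of log2 ratios over 3 libraries, among genes within 4-fold of its level. KRT7 had no close match among 582 candidates, since 0 lay within 0.1 and the nearest were CYCS (distance 0.22; ratios 0.67 and 0.21), F3 (0.31; 1.14 and 0.46) and KIF5B (0.32; 0.58 and 0.19). KRT8 was nearest to DSP (0.05; -0.02 and 0.76), CST3 (0.07; -0.03 and 0.75) and EEF1A1P6 (0.09; 0.11 and 0.70), with 5 of 472 candidates within 0.1. KRT18 was near to 62 of 2021 candidates, led by PKP3 (0.0083), TMEM87A (0.0090) and RN7SL4P (0.02). KRT19 was nearest to GSTP1 (0.02; -0.24 and -0.32), EIF2S2 (0.05; -0.18 and -0.31) and MT-TM (0.05; -0.21 and -0.35), with 4 of 172 candidates within 0.1. With 3 libraries that share 1 control such likeness is a description only.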

How the data were processed

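RNA of 3 HaCaT transfections was measured, 1 library each. The labels' protocols give 10 nM siRNA, a Qiagen RNeasy kit for RNA and SMARTer chemistry for library preparation. The authors deposited, per the file headers, FPKM per transcript with its exons, strand and length. The submitters' processing notes list the builds GRCm38, mm10 and GRCh38.p12 with no role attached. Which aligner and counter were used is not given in the sources used here. Transcripts carry human identifiers, coordinates are as listed, and sequences come from GENCODE 29 (GRCh38).

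FPKM multiplied by length fell on whole multiples of a step set by the library in 100% of values (tolerance 0.05 of a step). These multiples were read as base counts, and 100 bases were taken as a read equivalent. Transcripts on scaffolds and duplicate Y copies (20343 of 247012) were left out. FPKM was summed by gene, and ratios used log2(FPKM + 1), a scale that shrinks the ratios of weakly expressed genes. The filter was a mean summed FPKM of at least 1, passed by 13923 genes and by all 4 keratins. limma 3.58.1 (R 4.3.3, with trend) was fitted to 2 SRSF5 siRNA libraries against 1 control, assuming that the lone control varies like them, with Benjamini-Hochberg adjustment. The p-values reflect the spread of these samples alone, and that may be technical. The limma fit and the 1.5-fold rule were tried on simulated data. Calls of 1.5-fold carry no p-value. Alternatives were the gene level, pseudocount, filters, scaling, fold, pseudogenes, transcript length, limma settings and left-out libraries.

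Main coding transcripts are the principal ones of GENCODE 29 with the lowest number. Named genes are the 4 keratins, and from each list those at least 1.5-fold from control in the same direction with both siRNAs and the 2 with the highest control level, plus the 3 most alike per keratin. A gene of the luminal list that this rule names is not reported here. Others, such as single keratin pseudogenes, KRT7-AS, KRT6A, KRT6B, KRT6C, KRT13, KRT15, KRT20, CD68 and the transcripts at the ends of a range, were named after their values were seen. The members and lists were chosen with earlier results of these data known.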

Additional observations from a re-analysis of the deposited data

How the results depend on the processing

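Each keratin kept its direction in the limma comparison and stayed short of the threshold under 11 other settings, with mean log2 ratios of 0.57 to 0.61 for KRT7, 0.36 to 0.40 for KRT8, 0.09 to 0.13 for KRT18 and -0.29 to -0.24 for KRT19 (limma adjusted p 0.96 to 1.00). Without SRSF5 siRNA 1 or without SRSF5 siRNA 2 the values were 0.32 and 0.87 for KRT7, 0.74 and 0.03 for KRT8, 0.18 and 0.05 for KRT18 and -0.30 and -0.23 for KRT19, so KRT7 and KRT8 each rest on 1 library. Members at least 1.5-fold from the control were then 1 and 1. Members at least 1.5-fold between the siRNAs were 1, and 2 on the highest transcript, with ratios centred on the median gene or without mitochondrial transcripts, where KRT7 was at -0.66, -0.62 and -0.63, and 0 at 2-fold. Genes at least 1.5-fold in both numbered 649, and 389 on the highest transcript, 287 on the mean per transcript, 992 with a pseudocount of 0.1 FPKM and 141 at 2-fold, and 3244 without siRNA 1 and 1623 without siRNA 2. Between the siRNAs 3378 genes were at least 1.5-fold apart, 1877 on the mean per transcript and 953 at 2-fold. limma called 4 genes when only transcripts of at least 1000 bases were summed and 3 in a robust fit; the cause was not tested. No paired analysis was possible because the control has 1 library and carries no replicate number. The keratin ratios rest on at least 3443 read equivalents but on a single control library.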

Other observations

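Genes for proteins that bind or modify KRT8 and KRT18 had median log2 ratios of -0.14 with siRNA 1 and -0.04 with siRNA 2 over the 24 tested. With both siRNAs 0 of them were at least 1.5-fold higher and 1 was lower (3.19% and 1.47% of all genes), the stress-induced chaperone HSPA1A, at 30.3 and 31.6 FPKM on its highest transcript, against 48.3 in the control (log2 ratios -0.66 and -0.60), and it has a near-identical neighbour with which reads can be shared. SFN, an adaptor protein that binds keratins in epithelium, was at 447.0 and 360.7 FPKM, against 402.1 in the control, and HSPA8, a constitutive chaperone, at 187.2 and 201.4, against 219.3. limma called 0 of these 24, and 0 had an unadjusted p below 0.05 (2.99% of all genes).

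Among intermediate filament genes other than keratins 7 of 15 were tested, with medians of -0.06 and 0.23. With siRNA 1 alone 2 were at least 1.5-fold higher (6.18% of all genes) and 0 lower (5.47%). With siRNA 2 alone 2 were higher (13.2%) and 0 lower (10.1%). With both siRNAs 1 was at least 1.5-fold higher (3.19%) and 0 lower (1.47%). It was BFSP1, best known from the eye lens, at 1.80 and 1.94 FPKM, against 0.431 in the control (1.59 and 1.70; limma adjusted p = 0.92 over all genes). The lamins LMNA (-0.06 and 0.14) and LMNB2 (-0.32 and 0.01), which line the nucleus, had the highest control levels and lay near the control.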
